A study of Mus musculus with 18 samples.

Results

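The receptors and adaptors by which neutrophils recognise fungi are described here through 10 genes, picked by name from the gene table: the C-type lectin receptors Clec7a, Clec4n, Clec4d and Clec4e, the Toll-like receptors Tlr2 and Tlr4 with their co-receptor Cd14, and the signalling genes Syk, Card9 and Myd88. All 10 were found among 40481 gene IDs, and all 10 had enough reads to be tested. They were read in 18 RNA sequencing libraries of mouse lung neutrophils, 3 libraries in each of 6 groups, in which CGD mice, whose Cybb gene for the catalytic NADPH oxidase subunit gp91phox is disrupted, were set against WT mice, both C57BL/6. The groups were CGD and WT CD101neg cells after zymosan, CGD and WT CD101pos cells after zymosan, and CGD and WT CD101pos cells of naive mice. Zymosan, a yeast cell wall preparation, was instilled into the nose at 20 µg and lungs were taken 24 hours later, from females aged 13 weeks. Naive cells came from males aged 12 weeks, so zymosan, sex and age cannot be told apart in any comparison of zymosan with naive cells. Cells were sorted from digested lung as live CD45+ CD11b+ Ly6G+, then split by CD101, a surface protein gained late in neutrophil maturation. The labels call the CD101neg cells immature. Nothing used here says whether the 3 libraries of a group came from separate animals, so p-values measure the spread between these libraries.

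Neutrophils meet yeast through receptors for cell wall sugars. Clec7a encodes dectin-1, the receptor for beta-glucan, which is the main sugar of zymosan; Clec4n encodes dectin-2, which binds mannan, and Clec4d and Clec4e encode MCL and Mincle, which bind fungal and mycobacterial glycolipids and can pair with each other or with dectin-2. These lectin receptors signal through the tyrosine kinase Syk to the adaptor Card9, which joins Bcl10 and Malt1 and leads to NF-kB. Tlr2 recognises lipoproteins and yeast cell wall material, Tlr4 recognises lipopolysaccharide, Cd14 is a membrane protein that hands ligands to both, and Myd88 is the adaptor through which both signal.

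Clec4n, Clec4d and Clec4e lie close together on chromosome 6, between bases 123229843 and 123289870. Clec7a lies on the same chromosome but apart from them, at bases 129461591 to 129472779. RefSeq promoter windows, from 250 bases before to 50 bases after the annotated start on build GRCm38.p6, were on hand for 7 of the 10 genes, and Clec4n, Tlr4 and Cd14 had none. Of these, 4 are shown. They are Clec4d and Clec4e, neighbours whose RNA was higher in CGD CD101neg cells, and Tlr2, the receptor that differed between the CGD sorts in the main fit. The last is Clec7a, for which no comparison passed in that fit (the first of its annotated starts). The windows are chr6:123261857-123262156 on the plus strand for Clec4d, chr6:123289822-123290121 on the minus strand for Clec4e, chr3:83841559-83841858 on the minus strand for Tlr2 and chr6:129472730-129473029 on the minus strand for Clec7a. Capitals mark matches, on either strand, to PU.1 (GAGGAA), C/EBP (TTNNGNAA) or NF-kB.
Clec4d: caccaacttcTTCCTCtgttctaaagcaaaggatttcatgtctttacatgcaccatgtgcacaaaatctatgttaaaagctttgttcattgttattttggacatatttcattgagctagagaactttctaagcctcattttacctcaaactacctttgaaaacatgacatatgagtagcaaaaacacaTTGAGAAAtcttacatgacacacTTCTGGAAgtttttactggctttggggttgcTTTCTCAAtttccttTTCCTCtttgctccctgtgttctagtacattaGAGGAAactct
Clec4e: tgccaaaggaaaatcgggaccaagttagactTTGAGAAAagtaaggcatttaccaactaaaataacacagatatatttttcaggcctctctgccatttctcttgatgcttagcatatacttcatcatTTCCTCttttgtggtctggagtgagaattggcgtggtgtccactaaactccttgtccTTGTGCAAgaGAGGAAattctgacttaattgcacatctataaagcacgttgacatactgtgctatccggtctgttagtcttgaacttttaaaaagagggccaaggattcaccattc
Tlr2: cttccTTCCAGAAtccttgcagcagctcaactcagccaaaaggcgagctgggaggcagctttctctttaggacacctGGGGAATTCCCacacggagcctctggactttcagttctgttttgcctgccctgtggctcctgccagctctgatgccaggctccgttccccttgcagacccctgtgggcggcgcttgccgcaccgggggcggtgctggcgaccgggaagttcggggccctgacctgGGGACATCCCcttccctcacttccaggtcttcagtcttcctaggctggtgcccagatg
Clec7a: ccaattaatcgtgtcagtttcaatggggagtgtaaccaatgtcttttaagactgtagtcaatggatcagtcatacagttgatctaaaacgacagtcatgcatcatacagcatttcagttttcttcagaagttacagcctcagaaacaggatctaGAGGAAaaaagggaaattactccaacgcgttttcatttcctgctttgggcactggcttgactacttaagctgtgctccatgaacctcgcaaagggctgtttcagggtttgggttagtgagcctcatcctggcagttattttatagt
PU.1 and C/EBP are the transcription factors that set up granulocyte genes, and NF-kB is the factor that TLR and Card9 signals activate. The Clec4d window held 3 PU.1 and 3 C/EBP matches, the Clec4e window 2 of each, and the Clec7a window 1 PU.1 match, whereas the Tlr2 window held 1 C/EBP match and, at 2 places, NF-kB matches that overlap one another. Among the windows not shown, that of Card9 held 2 C/EBP matches and the second of Syk 1 PU.1 and 1 C/EBP match. The first Syk window and the Myd88 window held none. The first NF-kB place in Tlr2 begins 173 bases before the start and the other begins 8 bases before it. Among 32851 RefSeq windows of this length, 28.3% held the PU.1 letters, 40.7% the C/EBP letters and 8.46% an NF-kB match, and PU.1 and C/EBP matches may overlap. AP-1 (TGANTCA), the other factor searched, is in 7.81% of the windows and in none of those of these genes. A match is a run of letters and does not show binding.

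Libraries held 33713174 to 67939826 counts. Levels are given as CPM, counts-per-million after TMM scaling, which corrects for a few genes taking much of a library. Those factors were 0.702 to 0.809 in CGD CD101neg libraries and 1.16 to 1.24 in WT naive ones, so the scaling matters most for CGD CD101neg cells. Cybb averaged 45.1 CPM in CGD and 263 CPM in WT CD101neg cells, 32.6 against 173 CPM in CD101pos cells after zymosan, and 54.7 against 257 CPM in naive cells. Cd101 averaged 61.1 CPM in CGD CD101neg, 166 in WT CD101neg, 105 in CGD CD101pos and 403 CPM in WT CD101pos cells after zymosan. The 8 neutrophil markers summed to 18300 to 115000 CPM in every library, whereas 10 alveolar macrophage markers summed to 128 to 792 CPM and 10 monocyte and interstitial macrophage markers to 712 to 1210 CPM. The neutrophil sum also differed within groups. It was 73700 CPM in CGD naive library 3, against 31600 and 27300 in libraries 1 and 2. In CGD CD101neg library 1 it was 115000 CPM, against 60100 and 50600 in libraries 2 and 3. The 5 epithelial markers summed to 268 to 1720 CPM, with 1630 to 1720 CPM in WT naive and 315 to 1130 CPM in WT CD101pos libraries after zymosan. In libraries of many cells, fewer cells of a type and less RNA per cell cannot be told apart.

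Cd14 was by far the most abundant of the 10 genes, and Card9 the least. Per kilobase of exon, in CGD CD101neg cells, Cd14 stood at 29000 CPM per kb, ahead of Clec4d at 871, Clec4e at 672, Clec4n at 541, Tlr2 at 501 and Clec7a at 376 CPM per kb. Myd88 followed at 150, Tlr4 at 73.6, Syk at 39.8 and Card9 at 4.79 CPM per kb. In WT naive cells the order began with Cd14 at 5240 CPM per kb, then Clec7a at 401, Clec4d at 353, Tlr2 at 185 and Clec4e at 178. Clec7a, for dectin-1, thus stood above the other lectin receptors there and below them in CGD CD101neg cells. Clec4n stood at 63.8 CPM per kb in WT naive cells, below Myd88 at 121. Cd14 alone took 3.14 to 4.15% of all counts in the 6 CGD zymosan libraries, 1.74 to 1.99% in the 6 WT zymosan libraries, 1.21 to 1.48% in CGD naive and 0.948 to 1.26% in WT naive libraries. These shares rest on no scaling factor, and the 4 ranges do not overlap except those of the naive genotypes. Card9 averaged 12.3 CPM over all libraries and ranked 4837 among the genes by mean CPM, where Cd14 ranked 3.

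**Figure D1:**
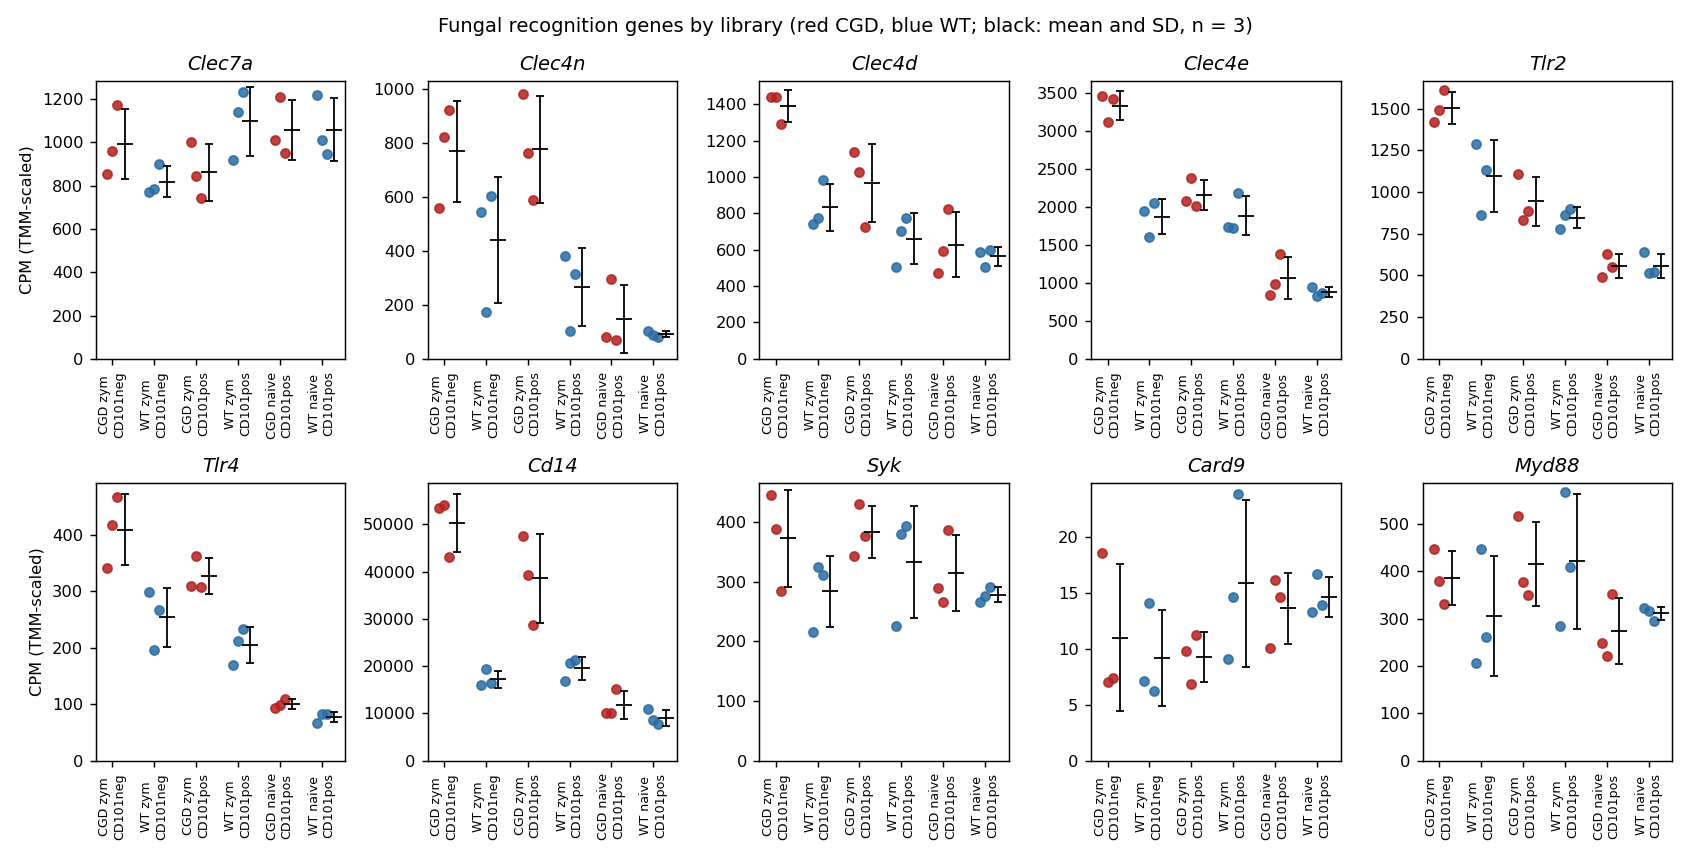
CPM (TMM-scaled, linear axis from 0) of each of the 10 genes in each of 18 libraries, with CGD in red left of WT in blue for each sort; black bars are the mean and SD of 3 libraries. Cd14 stands at 43200 to 54100 CPM in CGD CD101neg cells and 15900 to 19300 in WT, while Syk, Card9 and Myd88 overlap between the genotypes in every sort.

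Across the 7 pairwise comparisons, 15 of 70 values for these genes passed an adjusted p of 0.05 in edgeR, and all 15 were higher in the first-named group. Over all genes in the same comparisons, 6.11% of the values passed, 3860 as higher and 3226 as lower. Tlr4 and Cd14 passed in 4 comparisons each, Clec4e in 3, Tlr2 in 2, and Clec4n and Clec4d in 1 each. Clec7a, Syk, Card9 and Myd88 passed in none, with log2 fold changes between -0.79 and 0.60. How far the 6 groups accounted for the variance of log2 CPM followed the same split, with 96.2% for Tlr4, 94.4% for Cd14, 94.1% for Clec4e and 91.6% for Tlr2. It was 79.6% for Clec4d and 78.0% for Clec4n, but 49.5% for Clec7a, 38.6% for Myd88, 34.5% for Syk and 34.2% for Card9. These shares draw on the same group differences as the calls. Groups of 3 libraries also take a share of the variance where they do not differ.

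**Figure D2:**
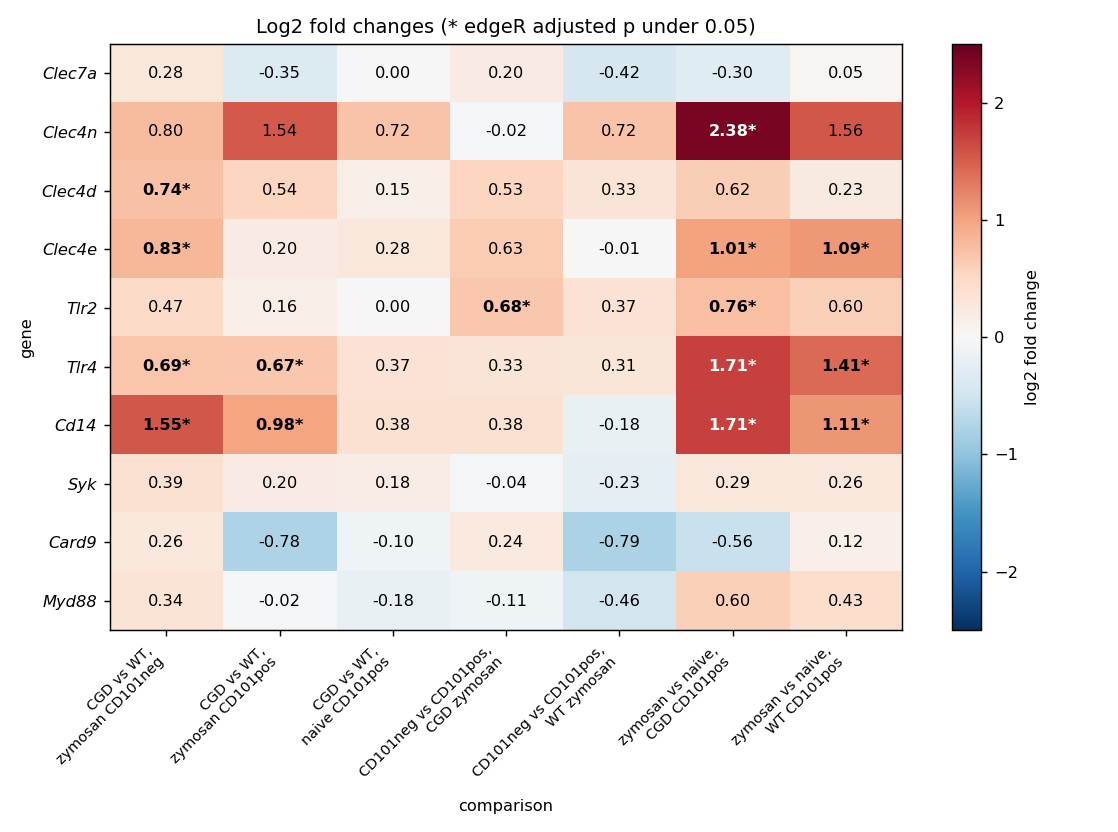
Log2 fold changes of the 10 genes (rows) in the 7 pairwise comparisons (columns), red for higher in the first-named group; an asterisk marks an edgeR adjusted p under 0.05. The 15 marked cells are all positive and lie in the rows of Clec4n, Clec4d, Clec4e, Tlr2, Tlr4 and Cd14.

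In CD101neg cells after zymosan, 4 of the 10 genes were higher in CGD than in WT cells, namely Cd14, Clec4e, Tlr4 and Clec4d. In that comparison 12.9% of 16575 genes were called, 6.67% as higher and 6.24% as lower (1105 higher and 1034 lower, against 413 and 3572 when scaled by library size only); the median log2 fold change was 0.58 over the 10 genes and -0.08 over all genes. Cd14 had 53500, 54100 and 43200 CPM in CGD libraries 1, 2 and 3, against 15900, 19300 and 16400 CPM in WT libraries. The lowest CGD library thus stood far above the highest WT library, and the log2 fold change was 1.55 ± 0.24 (SE; adjusted p = 0.000399, edgeR). Clec4e had 3460, 3120 and 3430 CPM in CGD libraries, against 1950, 1610 and 2050 CPM in WT libraries, a log2 fold change of 0.83 ± 0.20 (adjusted p = 0.00934). Every CGD library was again above every WT library, as it was for Clec4d, which had 1440, 1440 and 1290 CPM in CGD libraries, against 744, 774 and 983 CPM in WT libraries (log2 fold change 0.74 ± 0.23, adjusted p = 0.0407). Tlr4 had 342, 418 and 467 CPM in CGD libraries, against 298, 196 and 267 CPM in WT libraries, a log2 fold change of 0.69 ± 0.19 (adjusted p = 0.0242).

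The remaining receptors did not pass in CD101neg cells. Tlr2 had 1420, 1490 and 1610 CPM in CGD libraries, against 1290, 862 and 1130 CPM in WT libraries, so the groups did not overlap, but its log2 fold change of 0.47 had an adjusted p of 0.112 in edgeR (DESeq2 0.0428). With it, 5 of the 10 genes had groups that do not overlap, where 30% of all genes do. Clec4n had 560, 823 and 921 CPM in CGD libraries, against 544, 173 and 603 CPM in WT libraries, where WT library 2 stood apart at the low end (log2 fold change 0.80 ± 0.53, adjusted p = 0.343). Clec7a, the beta-glucan receptor, had 852, 959 and 1170 CPM in CGD libraries, against 768, 785 and 899 CPM in WT libraries, with a 95% interval of the log2 fold change from -0.12 to 0.68.

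These calls depend on the scaling and on single libraries. Scaled by library size only, which moves the median of all genes to -0.57, Cd14 stayed past the threshold (1.06) while Clec4e (0.34), Clec4d (0.25) and Tlr4 (0.19) did not. All 3 remained above that median. Without any 1 library, Cd14 and Clec4e stayed past the threshold. Clec4d missed it without CGD CD101neg library 1 (adjusted p = 0.111), 2 (0.113) or 3 (0.0649) or WT library 1 (0.13) or 2 (0.0906). Tlr4 missed it without CGD library 2 (0.0787) or 3 (0.0968) or WT library 2 (0.0874) or 3 (0.0551). Markers of some other cell types were lower in CGD cells in this comparison. For monocytes and interstitial macrophages 8 of 10 were lower (summed 712 to 963 CPM in CGD, 1010 to 1150 CPM in WT). For B cells 7 of 9 were lower (29.6 to 49.3 against 128 to 152 CPM), and for dendritic cells 3 of 7. Siglech, of dendritic cells, and Pax5, of B cells, were at 0 in CGD cells. They were also scarce in WT cells, at 0.0364 to 0.321 and 0.0383 to 0.091 CPM. Of 10 alveolar macrophage markers 4 were lower and none higher, although their sum was 310 to 505 CPM in CGD and 195 to 401 CPM in WT libraries. Of 3 eosinophil markers tested, 1 was lower. None of 7 T and NK cell, 5 epithelial, 3 endothelial and 3 fibroblast markers was called. The part of these cells in the receptor differences was not tested.

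In CD101pos cells after zymosan, Cd14 and Tlr4 were higher in CGD than in WT cells, and no other of the 10 genes passed. Of all genes, 5.30% were called, 2.77% as higher and 2.53% as lower (459 higher and 419 lower, against 308 and 490 when scaled by library size only), and the median log2 fold change was 0.20 over the 10 genes and 0.02 over all genes. Cd14 had 47600, 39400 and 28700 CPM in CGD libraries, against 16800, 20700 and 21200 CPM in WT libraries (log2 fold change 0.98 ± 0.23, adjusted p = 0.0187). Tlr4 had 309, 363 and 307 CPM in CGD libraries, against 170, 212 and 233 CPM in WT libraries (0.67 ± 0.19, adjusted p = 0.0494). Both genes kept CGD above WT in every library. Clec4n had 981, 761 and 587 CPM in CGD libraries, against 382, 104 and 314 CPM in WT libraries, which also do not overlap. Its log2 fold change of 1.54 was larger than that of Cd14, but its SE of 0.54 left an adjusted p of 0.117 (95% interval 0.41 to 2.68), and DESeq2 called it (adjusted p = 0.0311). Groups do not overlap for 3 of the 10 genes, against 21.9% of all genes.

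The remaining lectin receptors did not pass in this sort. Clec4e had 2080, 2380 and 2020 CPM in CGD libraries, against 1740, 1730 and 2180 CPM in WT libraries, which overlap (log2 fold change 0.20, 95% interval -0.21 to 0.61). Clec4d had 1140, 1030 and 725 CPM in CGD libraries, against 506, 705 and 774 CPM in WT libraries (0.54, interval 0.06 to 1.03, not past the adjusted threshold). Clec7a had 1000, 842 and 741 CPM in CGD libraries, against 920, 1140 and 1230 CPM in WT libraries, a log2 fold change of -0.35 (interval -0.75 to 0.06). Tlr4 missed the threshold without any one of the 6 libraries (adjusted p = 0.08 to 0.208). Cd14 missed it without CGD library 1 (0.0836) or 2 (0.0756) or WT library 1 (0.0569), 2 (0.0564) or 3 (0.0596). Macrophage markers moved with these genes here: 4 of 10 alveolar macrophage markers were higher in CGD cells (summed 480 to 792 CPM, against 185 to 522 CPM in WT), as were 4 of 10 monocyte and interstitial macrophage markers with 1 lower (898 to 1190 against 979 to 1140 CPM), and their part in the Cd14 and Tlr4 differences was not tested. Of the B cell markers 5 of 9 were lower in CGD cells, summed 50.7 to 71.8 against 153 to 182 CPM.

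Without zymosan, edgeR called none of the 10 genes between CGD and WT naive cells, and none had an unadjusted p under 0.05; DESeq2 also called 0. Few genes were called at all, 0.127%, with 0.121% higher and 0.00603% lower. Cd14 had 10000, 10100 and 15200 CPM in CGD libraries, against 10900, 8690 and 7640 CPM in WT libraries (log2 fold change 0.38, 95% interval -0.11 to 0.86). Tlr4 had 92.4, 98.4 and 109 CPM in CGD libraries, against 66.5, 82.7 and 83.0 CPM in WT libraries, which do not overlap, as for 14.7% of all genes (0.37, interval -0.04 to 0.77). Clec4n had 81.8, 294 and 70.5 CPM in CGD libraries, against 103, 89.4 and 79.9 CPM in WT libraries. CGD library 2 alone carries that difference: the log2 fold change was 0.72 with it and -0.25 without it, passing in neither case. Tlr2 and Clec7a had a log2 fold change of 0.00 each, with intervals from -0.40 to 0.39 and -0.40 to 0.40.

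**Figure D3:**
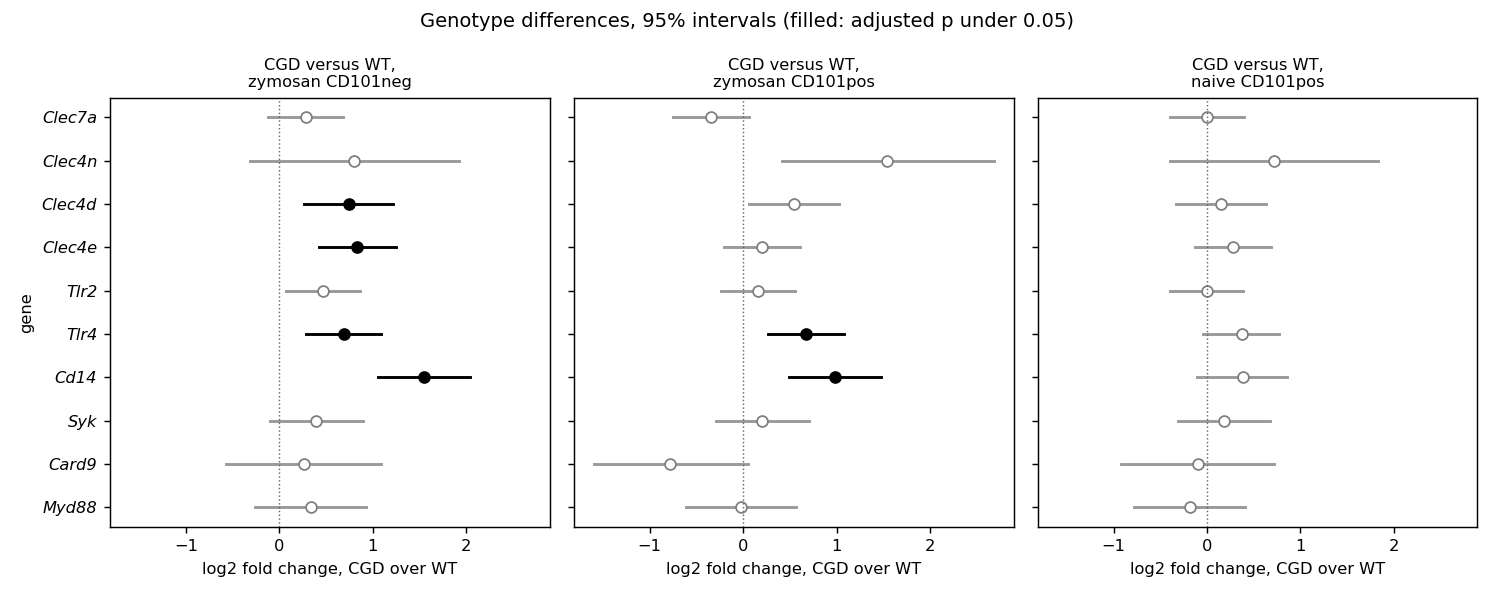
Log2 fold change of CGD over WT (points) with 95% intervals (bars) for the 10 genes in each sort; filled black points have an edgeR adjusted p under 0.05. The filled points are Clec4d, Clec4e, Tlr4 and Cd14 in CD101neg cells and Tlr4 and Cd14 in CD101pos cells after zymosan, with none in naive cells.

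Zymosan against naive CD101pos cells gave the largest differences of the set, with sex and age confounded as stated. In CGD mice 5 of the 10 genes were higher after zymosan, and in WT mice 3 were. Of all genes, 12.8% were called in CGD cells, 7.13% as higher and 5.71% as lower, and 3.79% in WT cells, 2.92% as higher. Scaled by library size only, the calls were 727 higher and 2021 lower in CGD cells, in place of 1182 and 946, and 264 and 617 in WT cells, in place of 484 and 145. The median log2 fold change was 0.69 over the 10 genes in CGD and 0.52 in WT cells, against 0.00 and -0.03 over all genes. Tlr4 had 309, 363 and 307 CPM in CGD zymosan libraries, against 92.4, 98.4 and 109 CPM in CGD naive libraries (1.71 ± 0.20, adjusted p = 1.44e-05). In WT cells it had 170, 212 and 233 CPM after zymosan, against 66.5, 82.7 and 83.0 CPM in naive libraries (1.41 ± 0.20, adjusted p = 0.000372). The groups were far apart in both genotypes. Cd14 rose by 1.71 ± 0.24 in CGD cells (adjusted p = 0.000102) and by 1.11 ± 0.24 in WT cells (adjusted p = 0.0107), although the WT call was lost without WT naive library 2 (0.0666) or 3 (0.0787). Clec4e rose by 1.01 ± 0.20 in CGD cells (adjusted p = 0.00211) and by 1.09 ± 0.20 in WT cells (adjusted p = 0.00315). It had 2020 to 2380 CPM in CGD zymosan libraries against 844 to 1380 in CGD naive ones, and 1730 to 2180 CPM in WT zymosan libraries against 822 to 950 in WT naive ones.

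Clec4n, the dectin-2 gene, had the largest log2 fold change of the 10 genes with zymosan. It stood at 981, 761 and 587 CPM in CGD zymosan libraries, against 81.8, 294 and 70.5 CPM in CGD naive libraries, a log2 fold change of 2.38 ± 0.55 (adjusted p = 0.00809). Without CGD naive library 2, which lay above the other naive libraries, it was 3.35. In WT cells it had 382, 104 and 314 CPM after zymosan, against 103, 89.4 and 79.9 CPM in naive libraries. There WT zymosan library 2 lay barely above the highest naive library, and the log2 fold change of 1.56 did not pass (95% interval 0.42 to 2.69; DESeq2 adjusted p = 0.0311). Tlr2 rose in CGD cells, with 1110, 834 and 888 CPM after zymosan, against 489, 630 and 552 CPM in naive libraries (0.76 ± 0.19, adjusted p = 0.0122), but the call was lost without CGD naive library 1 (0.0669) or CGD zymosan library 1 (0.0583). In WT cells Tlr2 had 776, 860 and 900 CPM, against 639, 515 and 519 CPM, and its 0.60 did not pass in edgeR (DESeq2 adjusted p = 0.0138).

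Groups do not overlap for 5 of the 10 genes in each genotype, against 32% of all genes in CGD and 23.7% in WT cells. Clec7a, the dectin-1 gene, passed in neither genotype. It had a log2 fold change of -0.30 in CGD cells (95% interval -0.70 to 0.11) and 0.05 in WT cells (-0.35 to 0.45) with zymosan. It stood at 741 to 1000 CPM in CGD zymosan against 949 to 1210 in CGD naive libraries and 920 to 1230 CPM in WT zymosan against 946 to 1220 in WT naive libraries. Scaled by library size only, the CGD value was -0.58 and passed as lower (adjusted p = 0.0386). Clec4d had 725 to 1140 CPM in CGD zymosan against 471 to 822 CPM in CGD naive libraries, a log2 fold change of 0.62 that did not pass; it did without CGD naive library 3 (0.0327) or CGD zymosan library 3 (0.0451). Alveolar macrophage markers also moved, with 5 of 10 higher in CGD cells (summed 480 to 792 CPM after zymosan, 128 to 251 CPM in naive) and 7 of 10 higher in WT cells (185 to 522 against 128 to 129 CPM). B cell markers were lower, 7 of 9 in each genotype, and the part of these cells in the receptor differences was not tested.

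In the main fit, edgeR called 1 of the 10 genes between the CGD sorts. Of all genes, 7.35% were called, 3.27% as higher and 4.08% as lower in CD101neg cells (542 higher and 676 lower, against 82 and 1163 when scaled by library size only), and the median log2 fold change was 0.28 over the 10 genes and -0.02 over all. Tlr2 had 1420, 1490 and 1610 CPM in CGD CD101neg libraries, against 1110, 834 and 888 CPM in CGD CD101pos libraries (0.68 ± 0.19, adjusted p = 0.038). The groups are well apart, but the call held without 1 library only when that was CGD CD101pos library 1; without any other the adjusted p was 0.0711 to 0.155, and scaled by library size only Tlr2 stood at 0.37 (adjusted p = 0.253). Clec4e had 3460, 3120 and 3430 CPM in CD101neg libraries, against 2080, 2380 and 2020 CPM in CD101pos libraries, also with no overlap, and a log2 fold change of 0.63 (adjusted p = 0.0571; DESeq2 0.00797). Clec4d, too, had no overlap, at 1290 to 1440 CPM in CD101neg against 725 to 1140 CPM in CD101pos libraries (0.53, 95% interval 0.05 to 1.01). That makes 3 of 10 genes, against 28.9% of all genes. Cd14 had 43200 to 54100 CPM in CD101neg against 28700 to 47600 CPM in CD101pos libraries (0.38, interval -0.11 to 0.87), which overlap. With the replicate number as a block within each genotype, Clec4d, Clec4e, Tlr2 and Cd14 all passed as higher in CGD CD101neg cells. In that fit 3924 of 15791 genes were called. Of the alveolar macrophage markers 6 of 10, and of the monocyte and interstitial macrophage markers 6 of 10, were lower in CGD CD101neg cells, summed 310 to 505 against 480 to 792 CPM and 712 to 963 against 898 to 1190 CPM; their part in these differences was not tested.

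In WT cells edgeR called none of the 10 genes between the sorts, where 0.44% of all genes were called, 0.0302% as lower. Of the 10, 1 gene, Clec7a, had an unadjusted p under 0.05, and DESeq2 called 0. Clec7a had 768, 785 and 899 CPM in WT CD101neg libraries, against 920, 1140 and 1230 CPM in WT CD101pos libraries, which do not overlap, as for 12.0% of all genes (log2 fold change -0.42, 95% interval -0.83 to -0.02). Same-numbered WT libraries of the sorts deviated together, and with the replicate number as a block within each genotype 2 of the 10 genes passed. That fit called 1741 of 15791 genes between the WT sorts. Clec4n was higher in CD101neg cells by 0.72 (adjusted p = 0.0239), at 544, 173 and 603 CPM in CD101neg libraries 1, 2 and 3, against 382, 104 and 314 CPM in the CD101pos libraries of the same numbers. Myd88 was lower, with a log2 fold change of -0.49 (adjusted p = 0.0149), at 207, 448 and 262 CPM in CD101neg libraries, against 285, 568 and 410 CPM in CD101pos libraries. In each of the 3 pairs Clec4n was higher and Myd88 lower in CD101neg cells, while both differed more between the numbers than between the sorts.

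**Figure D4:**
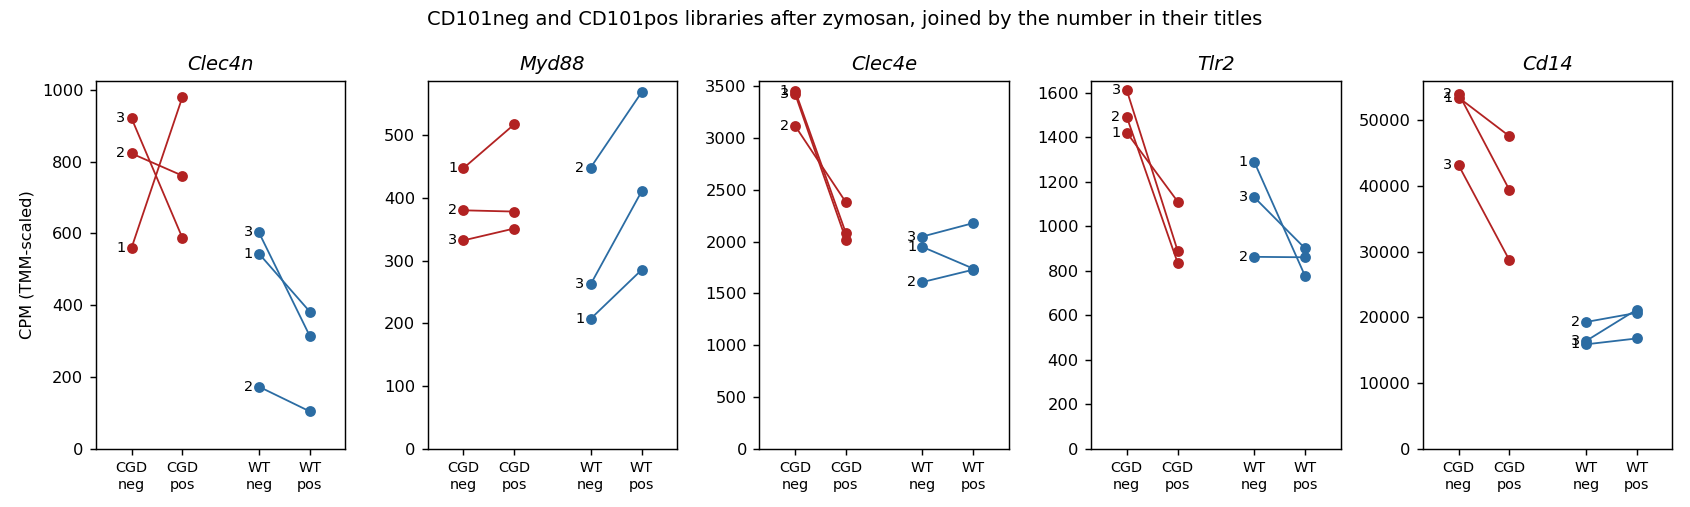
CPM (TMM-scaled, linear axis from 0) of 5 genes in CD101neg (neg) and CD101pos (pos) libraries after zymosan, CGD in red left of WT in blue; lines join libraries that carry the same number. WT pairs of Clec4n run down and WT pairs of Myd88 run up, while Clec4e, Tlr2 and Cd14 are higher in all 3 CGD CD101neg libraries than in the CD101pos libraries of the same number.

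Neither the genotype by sort interaction nor the genotype by zymosan interaction passed for any of the 10 genes in edgeR (0.851% and 0.32% of all genes called) or in DESeq2. At an unadjusted p under 0.05 there were 2 genes in the first, Clec4e (0.64, unadjusted p = 0.0325) and Clec7a (0.63, unadjusted p = 0.0324), and 0 in the second. The numbers pair the CGD libraries less clearly than the WT ones. With the replicate block within genotype, the Clec4e interaction passed (0.62, edgeR adjusted p = 0.0314), alone of the 10 genes. For this interaction 2229 of 15791 genes were called in that fit. Without that block, the genotype difference of Clec4e, which passed in CD101neg and not in CD101pos cells, was not shown to differ between the sorts. The zymosan difference of Cd14 was not shown to differ between genotypes (0.60, 95% interval -0.08 to 1.29).

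None of the 3 signalling genes passed in any of the 7 comparisons. Syk, the kinase below the lectin receptors, had 445, 388 and 285 CPM in CGD CD101neg libraries, against 215, 325 and 311 CPM in WT libraries, which overlap, and its log2 fold changes lay between -0.23 and 0.39 in the 7 comparisons. Card9 stayed between 6.22 and 23.9 CPM in all 18 libraries, and its lowest log2 fold changes were -0.78 (CGD against WT CD101pos cells after zymosan) and -0.79 (WT CD101neg against CD101pos cells), with groups that overlap in part. Myd88 lay between -0.46 and 0.60. WT zymosan library 2 was the highest WT library for Myd88 in both sorts, 448 CPM in CD101neg and 568 CPM in CD101pos cells, and the lowest for Clec4n, 173 and 104 CPM. The neutrophil markers were also highest there among WT libraries, at a summed 80200 CPM in CD101neg and 85700 CPM in CD101pos cells, against 18300 to 33500 and 30500 to 51900 CPM in the other WT zymosan libraries; their part in the spread of these genes was not tested.

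Several of the receptors followed one another over the libraries, and less closely within the groups. Over all 18, as a description of libraries that share groups and scaling, Pearson's r of log2 CPM was 0.953 between Clec4e and Tlr4, 0.921 between Clec4e and each of Tlr2 and Cd14, and 0.907 between Tlr2 and Tlr4. After the group means were taken out, r was 0.482 for Clec4e and Tlr4, 0.376 for Clec4e and Tlr2, 0.44 for Clec4e and Cd14 and 0.385 for Tlr2 and Tlr4. The strongest values were then 0.743 between Clec4d and Cd14, 0.722 between Cd14 and Myd88, 0.714 between Clec4d and Clec4e and -0.723 between Clec4n and Myd88. Of 5158 other genes with a mean of at least 10 CPM, those most like each receptor were C1rl (r = 0.991) and Arf1 (0.972) for Cd14, Alas1 (0.980) and Mefv (0.976) for Tlr4, Prkd3 (0.976) and the chemokine gene Cxcl2 (0.974) for Clec4e, Hnrnph2 (0.978) and Vps4b (0.953) for Clec4d, and Ehd1 (0.951) for Tlr2. For Clec4n they were Bcl2a1a (0.974), whose near-identical copies make its counts uncertain, and Traf6 (0.973), the ubiquitin ligase below Myd88. For the others r was lower, with Plekhj1 (0.753) and Vamp5 (0.751) for Clec7a, Klhl2 (0.926) and Dhx38 (0.924) for Syk, Il13ra1 (0.943) and Glipr2 (0.927) for Myd88, and Pi16 (0.830) and Dock8 (0.819) for Card9.

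**Figure D5:**
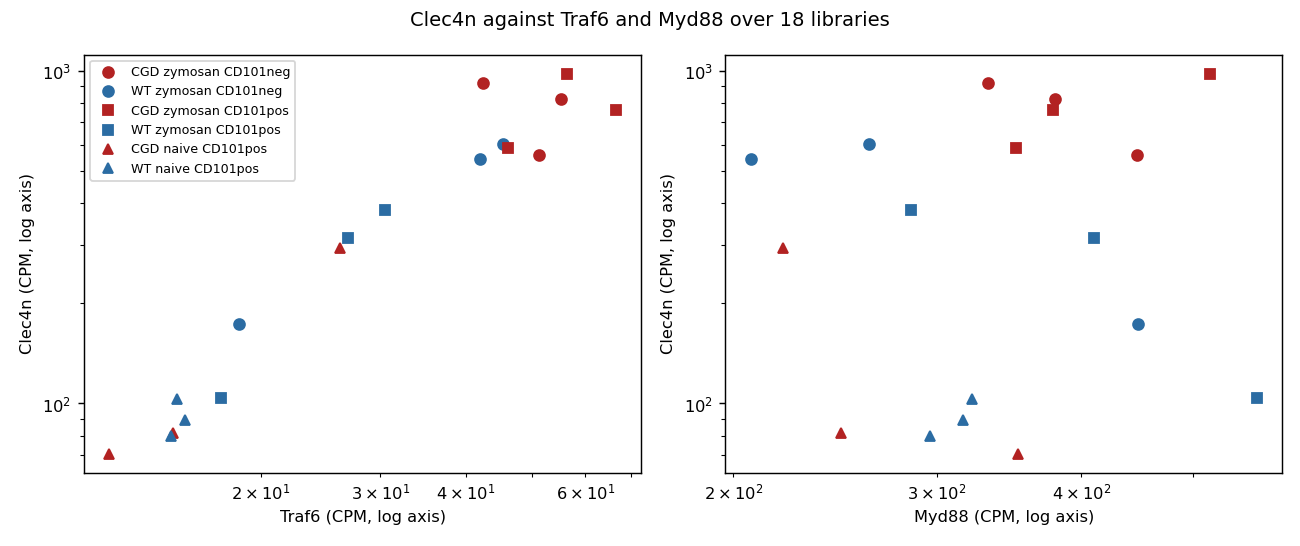
Clec4n against Traf6 (left) and Myd88 (right), in CPM on log axes, over 18 libraries; red is CGD, blue WT, circles CD101neg and squares CD101pos after zymosan, triangles naive. Clec4n and Traf6 rise together (r = 0.973), while Clec4n and Myd88 show no common trend over all libraries (r = 0.0786).

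The lists from here on were chosen with earlier results of these data known, and the shares of all genes called in each comparison are given above. Of 14 other genes of the Syk and Card9 pathway, 5 were higher and 0 lower in CGD than in WT CD101neg cells. Of all genes, 6.67% were higher and 6.24% lower there. The list median was 0.49 against -0.08 over all genes. Lcp2, the SLP-76 adaptor that Syk phosphorylates, had 1170, 1130 and 1170 CPM in CGD libraries, against 607, 548 and 553 CPM in WT libraries (1.02 ± 0.16, adjusted p = 0.000365). Vav3, a guanine nucleotide exchange factor, was higher by 1.00 ± 0.17 (adjusted p = 0.000761), with 29.3 to 32.9 CPM in CGD and 14.2 to 16.9 CPM in WT libraries. Malt1, the paracaspase of the Card9 complex, had 53.2 to 59.1 CPM in CGD and 9.66 to 31.2 CPM in WT libraries (1.39 ± 0.37, adjusted p = 0.0185). Fcer1g, the signalling chain that dectin-2, MCL and Mincle use, had 3040 to 3800 CPM in CGD and 1540 to 2280 CPM in WT libraries (0.85 ± 0.22, adjusted p = 0.0185). Scaled by library size only, Vav3 (0.51, adjusted p = 0.0885) and Malt1 (0.87, adjusted p = 0.134) missed the threshold. All 4 genes kept their groups apart. Lcp2 and Vav3 passed without any 1 library, Malt1 without 5 of 6 and Fcer1g without 2 of 6. Fcer1g also missed the threshold with only the groups compared (edgeR adjusted p = 0.0726). In CD101pos cells after zymosan 1 was higher, Lcp2 (0.56 ± 0.15, adjusted p = 0.0401), and 1 lower, the phospholipase gene Plcg2 (-0.73 ± 0.19, adjusted p = 0.0334). The list median was -0.17. Lcp2 passed without 1 of 6 libraries and Plcg2 without 2 of 6. Both missed the threshold when scaled by library size only (edgeR adjusted p = 0.057 and 0.0614) and with only the groups compared (0.232 and 0.116). Between the CGD sorts 3 were higher in CD101neg cells (list median 0.34), namely Vav3 (0.72 ± 0.17, adjusted p = 0.0147), Malt1 (1.27 ± 0.37, adjusted p = 0.0426) and the kinase gene Prkcd. Each call was lost without 2 to 6 of the 6 libraries. With zymosan, 2 were higher and 2 lower in CGD cells (list median 0.07). The higher ones were Lcp2 (1.20 ± 0.16, adjusted p = 5.37e-05) and Fcer1g (0.89 ± 0.22, adjusted p = 0.0131). Plcg2 was lower (-0.88 ± 0.19, adjusted p = 0.00483). The Fcer1g call was lost without 2 of 6 libraries.

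Of 18 other genes of TLR signalling, 1 was higher in CGD than in WT CD101neg cells, where 6.67% of all genes were higher. That gene was the kinase gene Map3k8 (0.92 ± 0.19, adjusted p = 0.00334), and the list median was -0.03. Scaled by library size only, it stood at 0.42 and missed the threshold (adjusted p = 0.163). In CD101pos cells after zymosan Map3k8 (0.69 ± 0.19, adjusted p = 0.0345) and Traf6 (1.17 ± 0.31, adjusted p = 0.0314) were higher and Unc93b1, the chaperone of endosomal TLRs, was lower (-0.93 ± 0.21, adjusted p = 0.0122). Traf6 had 56.3, 66.5 and 46.2 CPM in CGD CD101pos libraries, against 30.5, 17.5 and 26.9 CPM in WT libraries, so its groups, like those of Clec4n, do not overlap; Traf6 and Map3k8 each passed without 2 of 6 libraries and Unc93b1 without 4. Scaled by library size only, Map3k8 (edgeR adjusted p = 0.133) and Traf6 (0.111) missed the threshold. Map3k8 also missed it with only the groups compared (0.139). With zymosan, Map3k8 rose by 1.82 ± 0.19 in CGD (adjusted p = 5.01e-06) and 1.08 ± 0.19 in WT cells (adjusted p = 0.00228), and Traf6 by 1.67 ± 0.31 in CGD cells (adjusted p = 0.00161).

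Among 9 other TLR family genes, Tlr5, the flagellin receptor, was lower in CGD than in WT cells in CD101neg (-1.01 ± 0.25, adjusted p = 0.0117) and CD101pos cells after zymosan (-1.67 ± 0.25, adjusted p = 0.000827), at 2.60 to 4.22 against 4.63 to 8.21 CPM and at 2.98 to 3.66 against 9.91 to 12.0 CPM. The CD101neg call was lost without 2 of 6 libraries and with only the groups compared (edgeR adjusted p = 0.0957). No other of the 9 passed in those comparisons, and the list median was 0.16 in each. Tlr1, the partner of Tlr2, was higher with zymosan, by 2.11 ± 0.65 in CGD (adjusted p = 0.0422) and 3.08 ± 0.69 in WT cells (adjusted p = 0.017). It had 23.4, 29.1 and 26.0 CPM in CGD zymosan libraries, against 2.57, 2.72 and 12.9 CPM in CGD naive libraries, and 6.53, 37.8 and 17.9 CPM in WT zymosan libraries, against 2.21, 2.37 and 2.80 CPM in WT naive libraries. WT zymosan library 2 is the highest here, as for Myd88, and the Tlr1 calls held without 1 of 6 libraries in CGD and 2 of 6 in WT cells.

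Of 13 genes that restrain these pathways, 5 were higher and 0 lower in CGD than in WT CD101neg cells (list median 0.22), against 6.67% higher and 6.24% lower of all genes. Irak3, an inhibitor of Myd88 signalling, had 231, 324 and 299 CPM in CGD libraries, against 53.4, 41.5 and 57.5 CPM in WT libraries (2.49 ± 0.21, adjusted p = 1.32e-06), and it passed without any 1 library and under library-size scaling. Ubash3b, a phosphatase gene of the Syk pathway (1.31 ± 0.30, adjusted p = 0.00727), Ptpn6, encoding SHP-1 (0.64 ± 0.18, adjusted p = 0.0242), and the deubiquitinase gene Cyld (0.51 ± 0.14, adjusted p = 0.0223) were also higher. These 3 missed the threshold when scaled by library size only, Ptpn6 and Cyld also without 4 of 6 libraries. With only the groups compared, Ubash3b (edgeR adjusted p = 0.0537), Ptpn6 (0.136) and Cyld (0.113) missed it too. In CD101pos cells after zymosan Irak3 alone of the 13 passed, at 79.7, 94.0 and 97.6 CPM in CGD libraries, against 36.1, 37.6 and 49.5 CPM in WT libraries (1.14 ± 0.20, adjusted p = 0.00262). Between the CGD sorts Irak3 was higher in CD101neg cells by 1.65 ± 0.20 (adjusted p = 0.000203).

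Other lectin genes lie near the receptors on chromosome 6. Of 12 such genes, Clec4a3 (-1.74 ± 0.31, adjusted p = 0.00141) and Clec4a1 (-1.26 ± 0.30, adjusted p = 0.00938) were lower and Clec2d was higher (1.85 ± 0.43, adjusted p = 0.00918) in CGD than in WT CD101neg cells, with a list median of 0.11. In that comparison 6.24% of all genes were lower and 6.67% higher. The Clec2d call was lost without CGD CD101neg library 3 (1.34, adjusted p = 0.0592) and when scaled by library size only (1.35, adjusted p = 0.0625). Clec4a3 had 13.9, 10.5 and 12.8 CPM in CGD libraries, against 49.9, 23.7 and 50.6 CPM in WT libraries. Reads of the close Clec4a paralogs may be split between them, so these values are uncertain. With zymosan, Clec4a1 was lower in CGD (-1.93 ± 0.30, adjusted p = 0.000278) and WT cells (-1.09 ± 0.29, adjusted p = 0.0452), the WT call being lost without 5 of 6 libraries.

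Of 10 other fungal receptors, 1 was higher and 3 lower in CGD than in WT CD101neg cells, and 2 were higher in CD101pos cells after zymosan. Among all genes, 6.67% were higher and 6.24% lower in CD101neg cells, and 2.77% were higher in CD101pos cells. Mrc1, the mannose receptor of macrophages and also one of the alveolar macrophage markers, had 2.80, 3.81 and 2.18 CPM in CGD CD101neg libraries, against 12.1, 9.87 and 6.55 CPM in WT libraries (-1.70 ± 0.36, adjusted p = 0.00429). In CD101pos cells it had 17.5, 31.8 and 49.0 CPM in CGD libraries, against 13.9, 7.03 and 8.55 CPM in WT libraries (1.74 ± 0.35, adjusted p = 0.00664), so its direction turned between the sorts. Cd209a, also one of the dendritic cell markers, and Colec12 were the other genes lower in CD101neg cells. Ptx3, higher in both sorts, had no more than 0.861 CPM in any library. In CD101neg cells the Cd209a call was lost without 3 of 6 libraries, that of Colec12 without 2 and that of Ptx3 without 4, and in CD101pos cells Ptx3 was lost without 3; Cd209a (adjusted p = 0.0746) and Colec12 (0.0502) also missed the threshold with only the groups compared. Itgam, an integrin subunit of the complement receptor that binds beta-glucan, was higher with zymosan in WT cells (log2 fold change 0.71, adjusted p = 0.0387), at 832, 764 and 1130 CPM after zymosan, against 584, 526 and 557 CPM in naive libraries, and the call was lost without 5 of 6 libraries.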

How the data were processed

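RNA was extracted with the RNeasy kit and libraries were made with a SMARTer kit, per the labels' protocols. The submitters' processing notes name STAR 2.5.1a, Subread and featureCounts 1.4.6-p5; no build, annotation or strand setting is given in the sources used here. The authors deposited raw counts per gene for 18 libraries in 1 table. It has 40757 lines, of which 276 repeat 167 IDs with identical counts and were dropped, leaving 40481 IDs.

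Genes passing edgeR's filter on low counts (16575, with at least 99.967% of the counts) were fitted in 1 model over the 6 groups (12 residual degrees of freedom) with TMM scaling, glmQLFit and glmQLFTest, in R 4.3.3 with edgeR 4.0.16 and limma 3.58.1. Adjusted p-values are Benjamini-Hochberg over all genes tested, with 0.05 as the threshold. Intervals are 95%. DESeq2 1.42.0, other scalings, no filter, fits on the compared groups only, a replicate block and leaving out each library were alternatives. Log2 CPM used an offset of 0.5 CPM. Lengths per gene ID come from GENCODE M21. The fit was tested on simulated data.

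The 10 genes and all lists were chosen with earlier results of these data known. By the rule for named genes, all 10 are described, with up to 4 passing genes of lowest adjusted p per list and comparison, of which the text gives a selection, and the 2 genes with the highest Pearson r to each of the 10; some genes that meet the rule are not reported here. WT libraries of the same number correlated between the sorts after zymosan (r = 0.715, 0.673 and 0.509). CGD ones did so for numbers 1 and 3 (0.421 and 0.47) but hardly for number 2 (0.0989). The numbers thus pair the WT libraries, and whether they also pair the CGD libraries is not settled.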

Additional observations from a re-analysis of the deposited data

Results flagged for a closer look

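No interaction passed the threshold for the 10 genes themselves, but for 4 genes of the surrounding lists the test of the difference between groups did, in edgeR's quasi-likelihood test. Irak3, the inhibitor of Myd88 signalling, had a genotype by sort interaction of 1.35 ± 0.28 on the log2 scale (adjusted p = 0.0239): CGD exceeded WT by 2.49 in CD101neg and 1.14 in CD101pos cells. It missed the threshold without 7 of 12 libraries and when scaled by library size only (0.87, adjusted p = 0.204). Vav3 had an interaction of 1.14 ± 0.23 (adjusted p = 0.0239), lost without 6 of 12 libraries and when scaled by library size only (0.70, adjusted p = 0.239).

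Mrc1, the macrophage mannose receptor, had a genotype by sort interaction of -3.43 ± 0.50 (adjusted p = 0.00307), which held without any 1 of 12 libraries. It is also an alveolar macrophage marker, and the part of those cells was not tested. Tlr5 had a genotype by zymosan interaction of -1.74 ± 0.34 (adjusted p = 0.0363), lost without 10 of 12 libraries; it stood at 2.98 to 3.66 CPM in CGD zymosan libraries, against 6.46 to 9.62 in CGD naive ones, and at 9.91 to 12.0 CPM in WT zymosan libraries, against 7.39 to 8.75 in WT naive ones.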

How the results depend on the processing

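Of 1230 values of the 10 genes under the alternatives, 1169 stayed on their side of the threshold, 46 were no longer past it and 15 newly passed. The sign changed in 63, all among the 1169 and called under neither setting. For CGD against WT CD101neg cells, 4 of the 10 genes passed; 5 did with DESeq2, which added Tlr2, 1 did with library size only or with only the groups compared, and 2 to 3 did when 1 library was left out. For CGD against WT CD101pos cells after zymosan, where 2 passed, 1 did with RLE size factors, with library size only or with no filter, 0 with only the groups compared (Cd14 included), and 0 to 1 with 1 library left out. Between the CGD sorts, where 1 passed, 0 did with library size only, with no filter or with only the groups compared, 2 with DESeq2, and 0 to 1 with 1 library left out. With zymosan, DESeq2 called 5 of the 10 in WT cells in place of 3, and 1 library left out gave 2 to 3 in WT and 4 to 6 in CGD cells. The cause of these moves was not tested.

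Counts over all genes moved by 1.5 times or more in these cases. For CGD against WT CD101neg cells, 2139 became 3985 with library size only and 1062 with only the groups compared. For CD101pos cells after zymosan, 878 became 572 with only the groups compared and 1402 with DESeq2. For naive cells, 21 became 9 with library size only, 14 with a replicate block, 6 with only the groups compared and 107 with DESeq2. Between the WT sorts, 73 became 140 with no filter, 1741 with a replicate block within genotype, 0 with only the groups compared and 323 with DESeq2. Between the CGD sorts, 1218 became 3924 with that block and 2134 with DESeq2. For zymosan in WT cells, 629 became 1220 with DESeq2. The genotype by sort interaction went to 327 with no filter, 2229 with that block, 62 with only the groups compared and 580 with DESeq2, in place of 141. The genotype by zymosan interaction went to 13 with library size only, 119 with no filter and 267 with DESeq2, in place of 53. With 1 library left out, the counts were 1164 to 1938 for CGD against WT CD101neg, 320 to 1125 for CD101pos after zymosan, 2 to 64 for naive cells, 3 to 400 between the WT sorts and 321 to 1185 between the CGD sorts. They were 263 to 560 for zymosan in WT cells, 1170 to 1891 in place of 2128 in CGD cells, 43 to 497 for the genotype by sort interaction and 5 to 54 for the genotype by zymosan interaction.

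A replicate block within genotype gave 2 genes in place of 0 between the WT sorts (Clec4n and Myd88), 4 in place of 1 between the CGD sorts (Clec4d, Clec4e, Tlr2 and Cd14), and 1 in place of 0 for the genotype by sort interaction, Clec4e (0.62, adjusted p = 0.0314). CGD libraries of the same number correlated less than WT ones did (r = 0.421, 0.0989 and 0.47 for numbers 1, 2 and 3). A replicate block over all groups moved no count for the 10 genes. What part depth (33713174 to 67939826 counts a library) or the number of libraries has in the calls that missed the threshold was not tested.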
